A study of Mus musculus with 4 samples.

Results

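The AP-1 transcription factor genes examined here were the Fos family (*Fos*, *Fosb*, *Fosl1* and *Fosl2*), the Jun family (*Jun*, *Junb* and *Jund*) and *Atf3*. They were picked by gene symbol, with earlier results of these data known, and all 8 were found among the 22863 genes listed for the mouse eyes. RNA with poly-A tails had been sequenced from 4 samples of C3H mice, 2 in subjective day and 2 in objective day. The mice were C3H/f+/+, a line that makes melatonin and lacks the *Pde6b* mutation of C3H, and all were raised with 12 hours of light a day. Subjective day mice had spent 18 hours in darkness at circadian time 6 (or 30 hours, as the description is not uniform), and objective day mice had seen light in the morning and spent 1 hour in darkness at zeitgeber time 6. Each sample pooled the 4 eyes of a female and a male mouse, without the lens and anterior eye, so that it held retina, RPE, choroid and posterior sclera, and the age was not given beyond age matching. The comparison thus asks how the AP-1 genes differed between eyes with recent light and eyes without it at the same hour.

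AP-1 is a family of dimers. Fos proteins do not pair stably with each other and bind DNA with a Jun partner, through a leucine zipper and an adjoining basic region, while Jun proteins can also pair among themselves and with ATF proteins such as ATF3. *Fos* is the classic immediate early gene: calcium, cyclic AMP and growth factor signals switch on its transcription within minutes through SRF and CREB, and its mRNA decays quickly. In rodent retina, light is known to induce *Fos* in inner retinal neurons, rods carry a *Fos* rhythm of their own, and c-Fos is needed for light-induced death of photoreceptors.

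The start-site regions are shown first because 1 of these genes passed the test for a difference between the conditions and the others did not. RefSeq promoter windows (GRCm38.p6) were found for 7 of the 8 genes, all except *Fosl1*. The 250 bases before the start, 5′ to 3′ on the gene's strand, are given for *Fos* (chr12:85473640-85473889, plus strand) and, for comparison, for its closest relative *Fosb* (chr7:19310046-19310295, minus strand) and for *Jun* (chr4:95052223-95052472, minus strand). Capitals mark the core of the cyclic AMP response element (TGACG), the variant AP-1 site TGACATCA and the TATA box (TATAAA).
Fos: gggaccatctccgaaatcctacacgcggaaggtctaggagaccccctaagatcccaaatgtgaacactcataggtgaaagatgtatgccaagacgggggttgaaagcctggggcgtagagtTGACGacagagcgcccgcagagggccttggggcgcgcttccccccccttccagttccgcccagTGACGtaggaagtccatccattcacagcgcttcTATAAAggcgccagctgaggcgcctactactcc
Fosb: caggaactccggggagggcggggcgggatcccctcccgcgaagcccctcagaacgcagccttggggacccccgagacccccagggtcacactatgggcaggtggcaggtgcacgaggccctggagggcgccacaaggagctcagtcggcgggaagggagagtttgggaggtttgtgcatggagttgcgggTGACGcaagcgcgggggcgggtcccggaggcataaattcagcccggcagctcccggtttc
Jun: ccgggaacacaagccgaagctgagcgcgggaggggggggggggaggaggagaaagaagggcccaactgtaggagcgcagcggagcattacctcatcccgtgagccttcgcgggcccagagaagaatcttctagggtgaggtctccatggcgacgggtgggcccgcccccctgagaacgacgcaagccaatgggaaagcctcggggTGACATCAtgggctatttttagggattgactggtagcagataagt

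The *Fos* window held TGACG at 129 and 66 bases before the start and TATAAA at 33 bases. The *Fosb* window held a single TGACG at 60 bases, and the *Jun* window held TGACATCA at 45 bases. Searched on both strands, TGACG was present in 4 of the 7 windows (*Fos*, *Fosb*, *Junb* and *Atf3*) and in 17.8% of 32851 mouse promoter windows of this length. The full palindrome TGACGTCA, which contains TGACG, was in 0 of the 7 and in 1.55% of all windows. TGANTCA, with any base at N and so looser than the AP-1 consensus TGA(C/G)TCA, was in 0 of the 7 and in 6.75% of all. TGACATCA was in 1 of the 7 and in 2.93%. TATAAA, searched on the gene's strand, was in 1 of the 7 and in 7.59%, and the CArG box of SRF was in 0 of the 7 and in 1.47%. The windows end at RefSeq starts, which for *Jund* lies 1210 bases upstream of the GENCODE M21 gene start and for *Fosl2* 299 bases from the nearest GENCODE transcript start, so that these 2 windows without a match may not be the bases before the transcripts counted. For the other 5 the RefSeq start lay within 30 bases of a GENCODE transcript start, although for *Atf3* it lay 34706 bases downstream of the gene start. These are matches of letters in this window only, and bases further upstream, where sites of SRF or other factors may lie, were not searched.

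*Fos* was the only AP-1 gene called higher in objective day (adjusted p under 0.05). It stood at 309 and 319 in the subjective day samples, against 527 and 536 in the objective day samples. Both objective day samples therefore lay far above both subjective day samples, and the samples of a condition lay close together. The deposited values look like gene counts scaled to a common library size, which the sources used here do not state; read so, a value of 1 stands for about 1 read (the step of 1 read lay between 0.929 and 1.11 in the 4 samples). The objective day mean was 531.46 ± 6.97 (SD, n = 2), against 313.79 ± 7.41 (SD, n = 2) for subjective day. On the log2(value + 1) scale, *Fos* was higher by 0.76 (standard error 0.09), a rise of 69.2% with a 95% interval of 1.46- to 1.96-fold, and the adjusted p was 0.00558 in limma's test over all genes tested.

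The gap between the nearest samples of the 2 conditions was 0.72 on the log2 scale, while samples of the same condition differed by 0.048 in subjective day and 0.027 in objective day. With 2 samples against 2, the two-sided exact permutation test gave p = 0.333, the smallest it can give, so the call depends on how limma pools variance over genes of like expression. When that variance was not made to follow mean expression, the adjusted p of *Fos* was 0.126, and limma called 0 of 17784 genes, although 3586 had an unadjusted p under 0.05. By p-value *Fos* stood at place 145 of the 17784 genes tested, and by size of the rise at place 127.

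**Figure D1:**
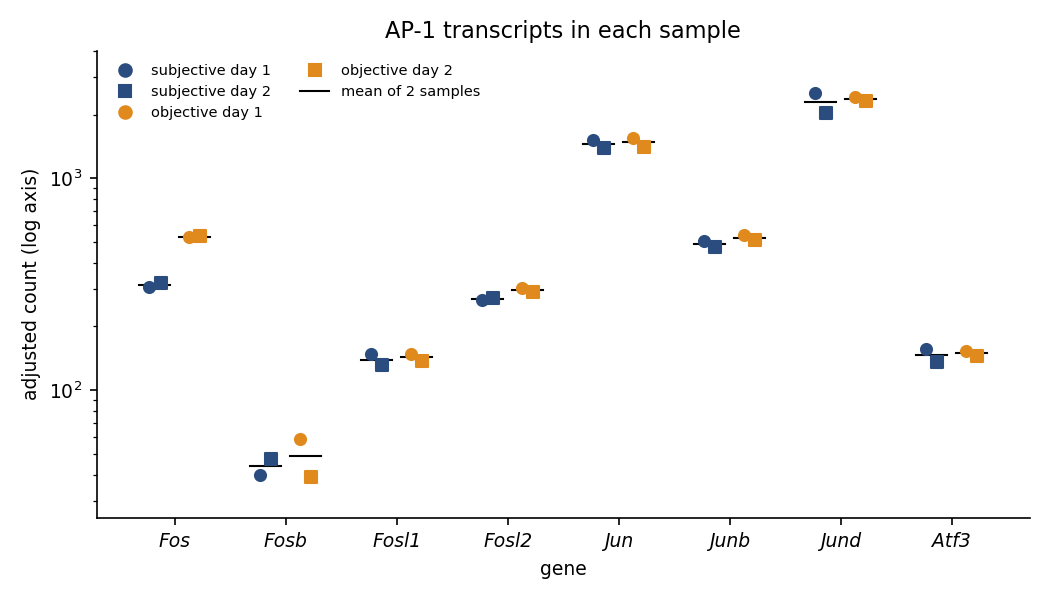
Adjusted count (log axis) of each AP-1 gene in the 4 samples; blue points are subjective day, orange points objective day, circles and squares the samples numbered 1 and 2, and lines the mean of 2 samples. The objective day values of *Fos* (527 and 536) sit clear of its subjective day values (309 and 319), while those of *Fosb*, *Fosl1*, *Jun*, *Jund* and *Atf3* intermingle.

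The other Fos genes did not pass the test. *Fosb*, whose product is close to c-Fos and which is likewise induced by activity, had values of 39.9 and 47.5 in subjective day, against 58.8 and 39.0 in objective day. The 2 conditions overlapped, with the highest and the lowest value both in objective day, and at about 40 reads counting error alone is 15.8%. The log2 difference of *Fosb* was 0.14 with a 95% interval of -0.50 to 0.77 (limma, adjusted p = 0.797), an interval that reaches the size of the *Fos* difference at this depth.

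*Fosl1* encodes Fra-1, a Fos protein without the transactivation domain of c-Fos. Its values were 148 and 131 in subjective day, against 148.49 and 138 in objective day, again overlapping, and its log2 difference was 0.039 (95% interval -0.30 to 0.38). *Fosl2* encodes Fra-2, which likewise lacks that domain, and had values of 266 and 271 in subjective day, against 304 and 291 in objective day. Both objective day samples of *Fosl2* were above both subjective day samples, yet by 0.098 on the log2 scale, and the difference of 0.15 (95% interval -0.10 to 0.39, adjusted p = 0.421 in limma's test) did not pass.

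Jun transcripts were nearly level. *Jun* encodes c-Jun, the main partner of c-Fos and a target of the JNK kinases, and had values of 1513.8 and 1389.7 in subjective day, against 1549.6 and 1404.4 in objective day. The samples numbered 1 were the higher in both conditions, and the log2 difference of 0.024 had the narrowest interval of the 8 genes (-0.16 to 0.21). *Junb*, a weaker activator that is often induced together with *Fos*, had values of 505 and 473 in subjective day, against 539 and 509.5 in objective day. Its conditions did not overlap, but the gap was 0.012 and the difference 0.0995 on the log2 scale (95% interval -0.11 to 0.31, adjusted p = 0.526 in limma's test).

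*Jund*, which is expressed constitutively in most cells, had values of 2536.3 and 2023.9 in subjective day, against 2431.5 and 2329 in objective day. Both objective day values lay between those of subjective day, and the log2 difference was 0.071 (95% interval -0.17 to 0.31). *Atf3*, a stress-induced ATF protein and a marker of injured ganglion cells, had values of 156 and 137 in subjective day, against 153 and 145 in objective day. These too lay inside the subjective day range, with a log2 difference of 0.033 (95% interval -0.30 to 0.37) and an adjusted p of 0.913 in limma's test.

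Thus 1 of the 8 genes was called higher and 0 lower. Over all 17784 genes tested, those that reached 10 in 2 samples or more, 8.51% were called, 1.06% as higher and 7.45% as lower. This background is not firm: the 189 higher and 1325 lower calls behind it ranged from 38 to 997 and from 613 to 1781 when single samples were left out (38 and 737 without objective day sample 1, 61 and 613 without objective day sample 2, 997 and 1781 without subjective day sample 1). The conditions were separated in the upward direction for 3 of the 8 (*Fos*, *Fosl2* and *Junb*), against 27.9% of all genes tested, and downward for 0, against 28.2%, and the upward count is near its background. The median log2 difference of the 8 was 0.085, against 0.015 for all genes tested. The fitted difference was above 0 in 8 of 8, but in *Fosl1*, *Jun*, *Junb*, *Jund* and *Atf3* it turned to between -0.14 and -0.039 once each sample's trend with transcript GC content was removed.

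Differences between the conditions followed the GC content of the transcript (Spearman correlation 0.58 across 17536 genes, a description, since genes of the same 4 libraries are not independent). Among the AP-1 genes the longest transcripts ranged from 51.9% GC in *Fos* to 67.1% in *Jund*. With the trend removed, *Fos* was higher by 0.69 on the log2 scale (adjusted p = 0.0205 in limma's test), and the median of the 8 became -0.045. The removal also changed the background, to 100 genes called higher and 111 lower, from 189 higher and 1325 lower.

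**Figure D2:**
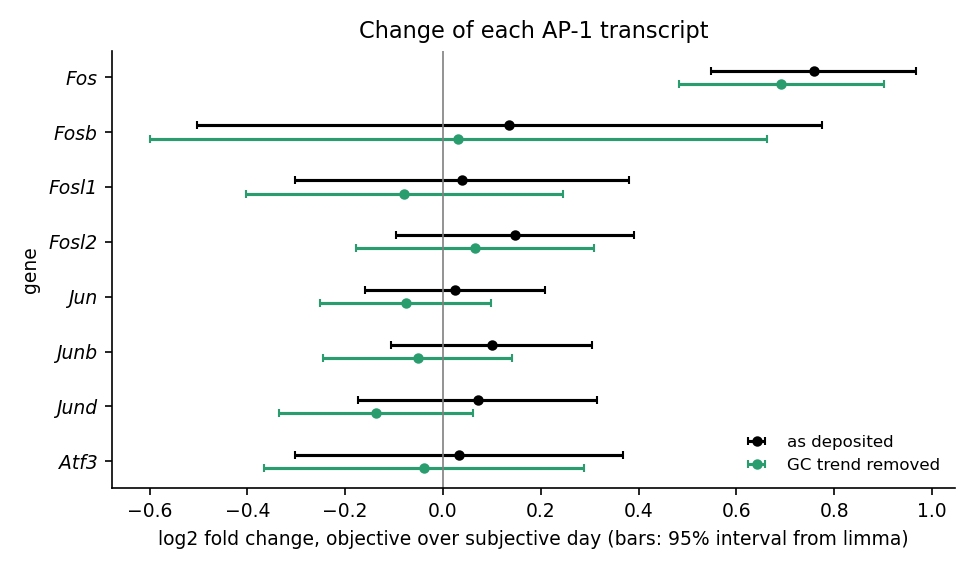
Log2 fold change of objective over subjective day for each AP-1 gene, with 95% intervals from limma, from the deposited values (black) and with the GC trend removed (green). The interval of *Fos* lies above 0 in both (0.76 and 0.69), those of the other 7 genes span 0 in both, and the points of *Fosl1*, *Jun*, *Junb*, *Jund* and *Atf3* change side.

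Relative to each other AP-1 gene, *Fos* was higher in both objective day samples than in both subjective day samples. The log2 ratio of *Fos* to *Jun*, each per kilobase of the longest transcript, was -1.70 and -1.53 in subjective day, against -0.96 and -0.79 in objective day. The ratio to *Junb* went from -0.93 and -0.79 to -0.25 and -0.15, with the 2 transcripts closer in objective day. Over the 7 other AP-1 genes the rise of this ratio lay between 0.61 for *Fosl2* and 0.74 for *Jun*. The separation was smallest for *Fosb*, at 0.21, and between 0.46 and 0.57 for the others, with p = 0.333 in each two-sided exact permutation test, the smallest 2 samples against 2 allow. The 7 ratios share their numerator and are not independent.

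**Figure D3:**
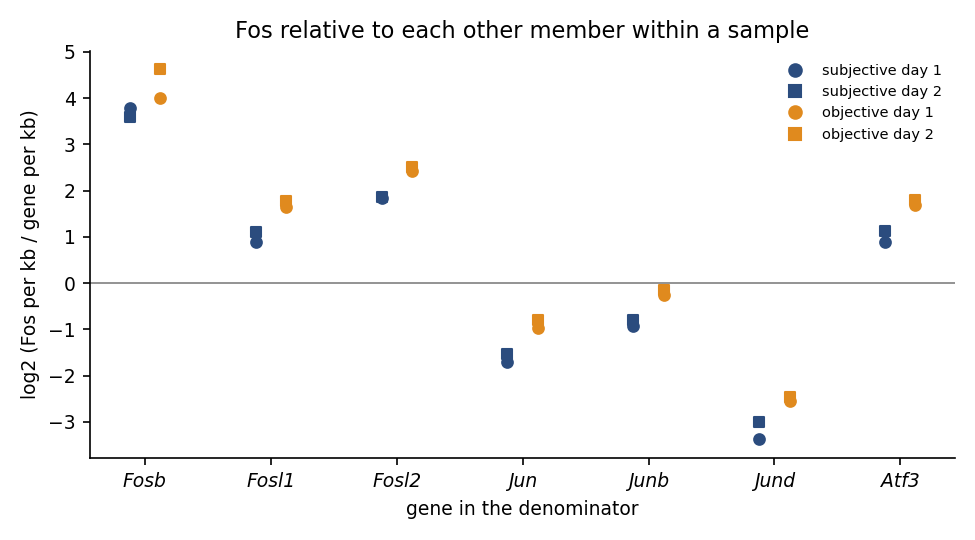
Log2 ratio of *Fos* to each other AP-1 gene within a sample, both as adjusted counts per kilobase of the longest transcript; blue is subjective day, orange objective day, and circles and squares are the samples numbered 1 and 2. The orange points lie above the blue points for all 7 genes, by 0.21 for *Fosb* and by at least 0.46 for the others.

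Levels of different genes were compared per kilobase of the longest transcript. *Jund* was the most abundant, with 1397 adjusted counts per kilobase on average over the 4 samples (range 1213 to 1521), followed by *Jun* with 459 (436 to 486) and *Junb* with 280 (262 to 298). *Fos* followed with 252 ± 3.3 (SD, n = 2) in objective day, against 149 ± 3.5 (SD, n = 2) for subjective day. *Fosl1* with 75.8 (70.3 to 79.7) and *Atf3* with 74.4 (68.8 to 78.5) did not differ beyond their spread. *Fosl2* with 43.3 (40.6 to 46.6) and *Fosb* with 12.3 (10.3 to 15.6) were the lowest, and apart from *Fosl1* and *Atf3* the ranges of neighbours in this order did not overlap. With the union of exons as the length, *Fosb* came to 7.42, and *Fos* lay below *Junb* in subjective day (131 and 136, against 220 and 206) but overlapped with it in objective day (224 and 228, against 234 and 221).

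The make-up of the Fos pool shifted with *Fos*, as these levels show. The 4 Fos transcripts summed to 277 and 276 adjusted counts per kilobase in subjective day and to 392 and 383 in objective day. *Fos* made up 52.9% and 54.9% of that sum in subjective day, against 63.8% and 66.4% in objective day, while the share of *Fosl1* was 28.6% and 25.5% and then 20.3% and 19.3%. The lower share of *Fosl1* follows from the higher *Fos* in the same sum, as its own level was 74.8 and then 76.7 on average. In the Jun sum, *Jund* held between 63.5% and 66.9% in all samples, with the conditions overlapping. Jun transcripts outnumbered Fos transcripts 8.22- and 6.93-fold in subjective day, against 5.73- and 5.53-fold in objective day. These shares are descriptions of mRNA and say nothing of the proteins.

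**Figure D4:**
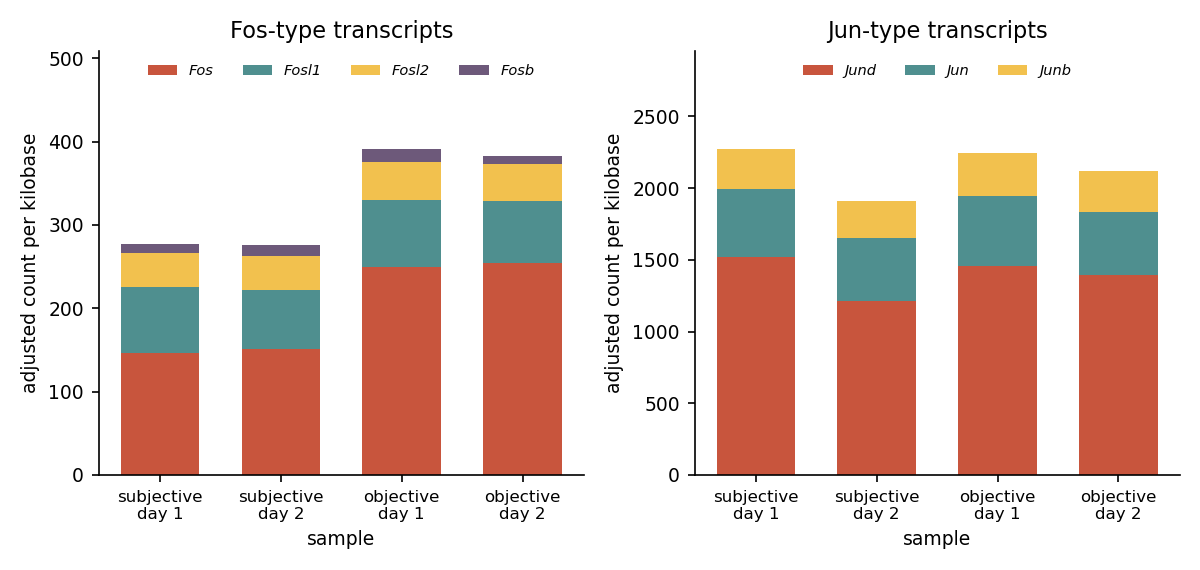
Adjusted counts per kilobase of the longest transcript, stacked by gene, for the Fos genes (left) and the Jun genes (right) in each of the 4 samples. The Fos bars reach 277 and 276 in subjective day, against 392 and 383 in objective day, the *Fos* segment rises from 149 to 252 on average, and the Jun bars of the 2 conditions overlap.

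The positions of the genes limit some of these counts. In GENCODE M21 on GRCm38, *Fos* (ENSMUSG00000021250) spans chr12:85473890-85477273 on the plus strand with 4 exons in its longest transcript, and no other gene overlaps it. *Fosb*, *Fosl2* and *Atf3* likewise share no exonic base with another gene. *Fosl1* (chr19:5447547-5455946, plus strand) shares 1163 of its 2033 exonic bases with *Ccdc85b* on the other strand, which stood between 652 and 875 in the 4 samples, above *Fosl1* itself (131 to 148). *Jund*, a gene of a single exon on chr8:70698949-70700616, shares 877 of 1668 bases with the antisense gene *Gm11175*. *Jun* shares 232 bases with the antisense gene *Junos*. Neither antisense gene was found by symbol among the genes listed, so their levels are not known. *Junb* shares 173 bases with *Prdx2*, a protein-coding gene on the other strand that stood between 3760 and 4391.6 in the 4 samples. The strand setting of the counting, and how reads over shared bases were treated, were not given in the sources used here. Reads of *Fosl1*, *Jun*, *Junb* and *Jund* at these bases may thus have been left out or mixed with those of their partners. The values of these AP-1 genes, also per kilobase, are uncertain to that extent.

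Markers of the labelled tissue were present, and so were markers of tissue outside it. The 5 photoreceptor markers summed to between 1921600 and 2412300 in every sample, and 4 of 5 RPE markers were well above 10, with *Best1* below 10 in all samples. Skeletal muscle, surface epithelium and lens are not part of the tissue described, yet their lists were present in every sample, with 4 muscle markers summing to between 26172 and 32246. Summed levels of some marker lists were separated between the conditions. The 6 surface epithelium markers summed to 10452 and 10933 in subjective day and to 3012 and 5482 in objective day, and 4 of the 5 tested were called lower. The listed blood markers *Hba-a1* and *Alas2* summed to 1223 and 1374 and then to 1926 and 2176, with *Hba-a1* called higher. The 4 microglia markers summed to 729 and 588 and then to 775 and 855, and the 3 melanocyte markers to 9544 and 9009 and then to 12652 and 10390. In either list 0 were called in limma's test, against 8.51% of all genes tested. An unadjusted p under 0.05 was reached by 3 and 1 of them, against 4512 of all 17784 genes tested. With the GC trend removed, 2 of the 3 melanocyte markers passed as higher. The 4 endothelium markers summed to 14033 and 13837 and then to 13232 and 12936, with 0 called and 0 at an unadjusted p under 0.05 in limma's test, and the median of their log2 differences had the opposite sign (0.16). Elsewhere, 2 of 4 Müller glia markers, 1 of 4 tested RPE markers and 1 of 4 scleral fibroblast markers were called lower, against 7.45% of all genes tested. None of these passed with the GC trend removed alone. With a term for the sample number (replicate block) added to that removal, *Rpe65*, *Slc1a3* and *Lum* passed as lower (limma, adjusted p = 0.00569, 0.00527 and 0.0164). *Aqp4* did not pass there (limma, adjusted p = 0.19). That fit called 712 of all genes lower. The lens sum overlapped between the conditions, with 32709 and 4358 in subjective day, against 39974 and 10665 in objective day. The part of these tissues in the *Fos* result was not tested, and in such bulk samples more cells of a type and more RNA per cell cannot be told apart.

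Upstream of AP-1, 3 kinase transcripts were called. Of 18 MAPK pathway kinases tested, 1 was called higher and 2 lower (16.7% called, against 8.51% of all genes tested), with a median log2 difference of 0.039, against 0.015 for all genes. *Mapk8*, which encodes JNK1, the kinase that phosphorylates c-Jun, fell from 3106.4 and 3246.3 in subjective day to 2390.8 and 2327.1 in objective day, by 0.43 on the log2 scale (limma, adjusted p = 0.00786). *Rps6ka3* (RSK2, a kinase downstream of ERK) fell by 0.53 on the log2 scale, and its relative *Rps6ka2* (RSK3) rose by 0.37 (limma, adjusted p = 0.00774 and 0.0114). With the GC trend removed, 0 of the 18 were called, with differences of -0.0077 for *Mapk8*, -0.14 for *Rps6ka3* and 0.28 for *Rps6ka2*.

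Of 17 transcription factors and coactivators that act on the *Fos* and *Jun* promoters, 0 were called higher and 1 lower (5.88% called, against 8.51% of all genes tested). This was *Creb1*, which encodes a factor that binds cyclic AMP response elements (binding to the TGACG letters shown in capitals above was not measured). Its values were 3056.5 and 3316 in subjective day, against 2420.2 and 2234.3 in objective day, lower by 0.45 on the log2 scale (limma, adjusted p = 0.0114), but the difference was 0.0010 with the GC trend removed. The other 16, among them *Srf* and *Elk1*, did not pass.

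**Figure D5:**
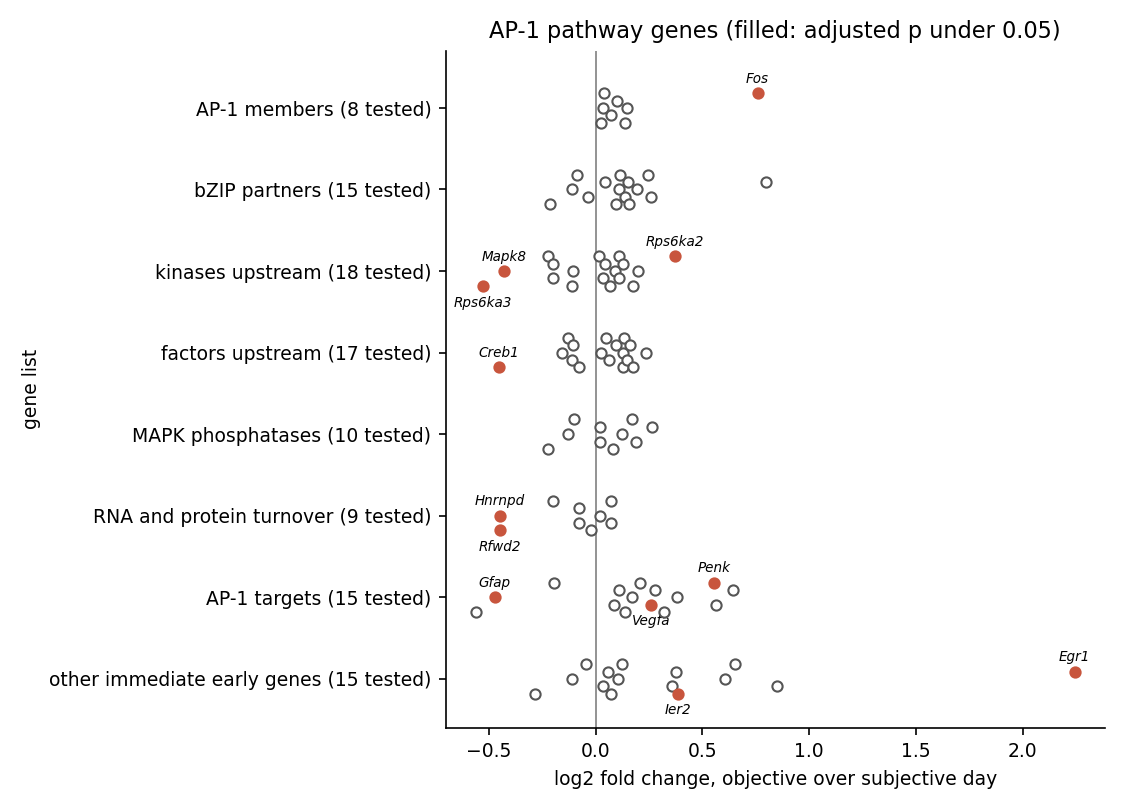
Log2 fold change of objective over subjective day for every tested gene of the AP-1 list and of 7 lists of related genes (the vertical offset within a list only separates points); filled points passed an adjusted p of 0.05 in limma's test and are named. *Fos* (0.76) is the filled point among the 8 AP-1 genes, and the named genes other than *Fos*, *Gfap* and *Egr1* do not pass with the GC trend removed, where *Mapk8* and *Creb1* stand at -0.0077 and 0.0010 while *Penk*, *Rps6ka2*, *Ier2* and *Vegfa* stand at 0.48, 0.28, 0.25 and 0.21.

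Among bZIP proteins that can pair with Fos or Jun, 15 of 17 were tested and 0 passed in limma's test, against 8.51% of all genes tested. An unadjusted p under 0.05 was reached by 4 of the 15, against 4512 of all 17784 genes tested. *Maff*, a small Maf protein induced as an early gene, had values of 39.9 and 45.3 in subjective day, against 74.7 and 74.6 in objective day. These did not overlap, and the log2 difference of 0.80 was about as large as that of *Fos*, with an adjusted p of 0.0579. *Atf5* came next, with a log2 difference of 0.26 (adjusted p = 0.131, limma).

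Of 10 MAPK phosphatases tested, which switch off the kinases above, 0 passed in limma's test, against 8.51% of all genes tested. An unadjusted p under 0.05 was reached by 2 of the 10, against 4512 of all 17784 genes tested. The largest differences were 0.26 for *Dusp14* and -0.23 for *Dusp16*. Of 9 genes of RNA and protein turnover, 2 were called lower (22.2%, against 7.45% of all genes tested). *Hnrnpd* encodes AUF1, which binds AU-rich elements such as those of *Fos* mRNA, and *Rfwd2* encodes COP1, a ubiquitin ligase subunit for c-Jun. Both fell by 0.45 on the log2 scale (limma, adjusted p = 0.0189 and 0.0168), and with the GC trend removed the differences were -0.14 and 0.24 and neither passed.

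Of 15 tested genes known as AP-1 targets, 2 were called higher and 1 lower (20.0% called, against 8.51% of all genes tested), with a median log2 difference of 0.21, against 0.015 for all genes. *Penk*, which encodes the enkephalin precursor and was an early example of a Fos-Jun target, had values of 614 and 617 in subjective day, against 966 and 848 in objective day, higher by 0.56 on the log2 scale (limma, adjusted p = 0.0114). *Vegfa*, the vascular growth factor, was higher by 0.26 (adjusted p = 0.0375, limma). *Gfap*, the intermediate filament of astrocytes and of reactive Müller glia, fell from 2037 and 2236.7 to 1507.8 and 1568.1, by 0.47 on the log2 scale (limma, adjusted p = 0.0097). With the GC trend removed, *Gfap* stayed lower by the test (difference -0.57, adjusted p = 0.0216 in limma), while *Penk* (difference 0.48, adjusted p = 0.0569 in limma) and *Vegfa* (difference 0.21, adjusted p = 0.166 in limma) no longer passed. Classic targets such as *Mmp13* and *Ccl2* had values too low to be tested.

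Among 15 other immediate early genes, 2 were called higher and 0 lower (13.3% called, against 1.06% higher and 7.45% lower for all genes tested). *Egr1* rose by 2.25 on the log2 scale, from 375 and 512 to 2163.1 and 2005.8, and *Ier2* by 0.38 (limma, adjusted p = 0.00531 and 0.0364), of which *Ier2* was not called with the GC trend removed (difference 0.25, adjusted p = 0.218 in limma).

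The genes whose pattern over the 4 samples was nearest to that of *Fos* were *Slc13a5*, *Gm16262* and *Hba-a1*, at distances of 0.080, 0.11 and 0.15 on the log2 scale between values centred on each gene's mean, among 13215 genes with a mean of at least 100. *Slc13a5*, a citrate transporter, had values of 252 and 256 in subjective day, against 423 and 461 in objective day. *Hba-a1*, an alpha globin gene with near-identical copies, and *Gm16262*, annotated as antisense, have counts that are uncertain for those reasons. With 4 samples, likeness of this kind is a description.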

How the data were processed

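Poly-A RNA from 4 eye samples (2 per condition) was sequenced as 50-base single reads on a single lane. The authors aligned reads with TopHat2 2.0.9 and Bowtie2 2.1.0 to mouse with Ensembl release 72, counted genes with HTSeq and compared conditions with edgeR. The deposited values are a signal per gene and sample, are not whole and sum to between 33278417 and 35236783. They look like gene counts brought to 1 common library size, which the sources used here do not state. The filter, normalization and strand setting were not given in the sources used here. The authors' own fold changes, CPM and p-values were not used.

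Genes that reached 10 in 2 samples or more were tested with limma 3.58.1 (R 4.3.3) on log2(value + 1), without a replicate block, with a variance prior that follows mean expression and Benjamini-Hochberg adjustment at 0.05, a scale that understates changes of low genes. The method was tested on simulated counts with a single dispersion for all genes, which does not show how many of the calls here are right. GC content (known for 98.6% of genes tested) and length were taken from the longest GENCODE M21 transcript, and a local regression of span 0.3 removed the GC trend, which also removes biology that follows GC content. The members, lists and motifs were chosen with earlier results of these data known. All members are named, with the called genes of each pathway list (or the 2 largest differences where none was called) and the 3 genes of nearest pattern for each called member. Markers are given as lists, and *Mmp13*, *Ccl2*, *Srf*, *Elk1*, *Best1*, *Alas2*, *Cryaa*, *Rpe65*, *Slc1a3*, *Lum*, *Aqp4*, *Mapk10*, *Mef2c*, *Nr4a1*, *Npas4* and *Dusp4* are named outside that rule. The list genes *Dusp9*, *Mmp10*, *Il6* and *Hbb-b1* were not matched by symbol. The labels call the samples biological replicates.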

Additional observations from a re-analysis of the deposited data

How the results depend on the processing

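*Fos* was higher in objective day under all 14 alternatives and called under 13, with log2 differences between 0.69 and 0.78 and adjusted p values between 0.000375 and 0.126. With a variance prior that does not follow mean expression its difference was 0.76 and its adjusted p 0.126, and 0 AP-1 genes and 0 of all genes were called in either direction. Under the other alternatives 1 AP-1 gene was called higher, and no other AP-1 gene was called under any. Leaving out each sample in turn, *Fos* ran from 0.73 to 0.78. Over all genes, the higher and lower calls were 100 and 111 with the GC trend removed and 29 and 407 at a threshold of 0.01. They ran from 38 to 997 and from 613 to 1781 when each sample was left out in turn (997 higher without subjective day sample 1, 38 without objective day sample 1 and 61 without objective day sample 2). When a sample is left out, the lone sample is assumed to vary like the others.

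Samples with the same number deviated together (correlation 0.319 across genes), but the labels do not say that they were processed together. With the replicate block the calls over all genes were 1282 higher and 2331 lower, and with the block and the GC trend removed 914 and 712; the block changed no call among the AP-1 genes, and the adjusted p of *Fos* was 0.00132. Of 99 tested genes of the pathway lists, 11 were called without the block; with it these 11 passed and 15 more did (10 higher and 5 lower), among them *Maff*, *Atf5* and *Dusp16* (limma, adjusted p = 0.0304, 0.023 and 0.0314), as did the lens marker *Cryaa*, higher in objective day (limma, adjusted p = 0.0127). With the block and the GC trend removed together, 5 of the 11 passed, among them *Penk*, *Rps6ka2* and *Vegfa* (limma, adjusted p = 0.00176, 0.00154 and 0.00951), and 5 others, *Mapk10*, *Mef2c*, *Nr4a1* and *Npas4* as higher and *Dusp4* as lower.

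With the GC trend removed, alone or with the block, the difference was reversed to -0.079 for *Fosl1*, -0.076 for *Jun*, -0.052 for *Junb*, -0.14 for *Jund* and -0.039 for *Atf3*. Leaving out single samples, it ran from -0.15 to 0.42 for *Fosb*, from -0.048 to 0.13 for *Fosl1* and from -0.046 to 0.095 for *Jun*. For *Jund* it ran from -0.092 to 0.23 and for *Atf3* from -0.062 to 0.13. For *Junb* it ran from 0.053 to 0.15 and for *Fosl2* from 0.11 to 0.18. It was negative without objective day sample 1 for *Fosb* (-0.15), *Fosl1* (-0.016), *Jun* (-0.046) and *Atf3* (-0.0055), and without subjective day sample 2 for *Fosl1* (-0.048), *Jun* (-0.037), *Jund* (-0.092) and *Atf3* (-0.062). Other scalings moved the median of all genes by -0.0035 at most and changed no call among the AP-1 genes. With exon union length, levels per kilobase became 179.7 for *Fos*, 7.42 for *Fosb*, 69.5 for *Fosl1*, 29.2 for *Fosl2*, 220.2 for *Junb* and 68.6 for *Atf3*, with the means in the same order. Counting error limits *Fosb* most.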
